A study of Arabidopsis thaliana with 3 samples.

Results

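The genes LHCB2.1, LHCB2.2, LHCB2.3, LHCB3, LHCB4.1, LHCB4.2, LHCB4.3, LHCB5, LHCB6 and LHCB7 encode chlorophyll-binding antenna proteins of photosystem II in Arabidopsis thaliana. They were taken from the deposited count table by gene identifier, and all 10 were found among its 37336 genes. RNA with poly(A) tails came from whole seedlings of the Col-0 accession, genotype wild type and untreated, aged 7 days. They grew at 21 °C under 16 h of light and 8 h of dark, on agar (0.8%) that held sucrose at 1.5%. The 3 libraries form a single group, so no comparison between genotypes or treatments was made. The labels do not say whether the samples came from separate plants or cultures, so p-values reflect a spread between libraries that may be technical.

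Light captured by antenna pigments is passed to the reaction centre of photosystem II, where water is split. The bulk of the antenna is LHCII, a trimer built from LHCB1, LHCB2 and LHCB3 proteins. Monomeric minor antenna proteins, namely CP29 (LHCB4), CP26 (LHCB5) and CP24 (LHCB6), sit between the trimers and the core. Phosphorylation of LHCII by the kinase STN7 lets part of it move to photosystem I when the light changes, and LHCB2 is a main target. Transcription of these nuclear genes is known to depend on light and on the GOLDEN2-LIKE factors GLK1 and GLK2.

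The LHCB2 copies were close in sequence, which bears on how their reads could be told apart. LHCB2.1 (AT2G05100, chromosome 2, 1822990 to 1824480, minus strand) and LHCB2.2 (AT2G05070, chromosome 2, 1799234 to 1800472, minus strand) lie 22517 bases apart in TAIR10.1, the RefSeq build used for all coordinates here. Their coding sequences of 798 bases differed at 27 positions, an identity of 96.6%, and the longest run without a difference was 152 bases. LHCB2.3 (AT3G27690, chromosome 3, 10255906 to 10257489, plus strand) was 85.5% identical to LHCB2.1 and 84.4% identical to LHCB2.2 over the coding sequence. The coding stretch from base 31 to base 90, where LHCB2.1 and LHCB2.2 differed most, is shown because it separates the 3 copies, with capitals marking bases that differ from LHCB2.1.
LHCB2.1: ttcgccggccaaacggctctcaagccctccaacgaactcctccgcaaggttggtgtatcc
LHCB2.2: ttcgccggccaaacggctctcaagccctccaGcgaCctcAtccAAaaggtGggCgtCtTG
LHCB2.3: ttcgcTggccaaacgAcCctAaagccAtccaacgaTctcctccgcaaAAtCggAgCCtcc
In this stretch LHCB2.2 differed from LHCB2.1 at 10 of 60 bases and LHCB2.3 at 12. Over the whole first isoform, 9.87% of the 100-base windows of LHCB2.1 and 12.4% of those of LHCB2.2 also occurred in the other copy, and none occurred in a further gene. With 50-base windows these shares were 22.7% and 28.2%. No source used here gives the read length or the treatment of reads with several positions, so the split between LHCB2.1 and LHCB2.2 is uncertain.

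Overlaps with genes on the opposite strand touched 4 members. Exons of AT3G27700 covered 40.6% of the exon bases of LHCB2.3. The share was 14.98% for LHCB3 (AT5G54270, chromosome 5, 22038165 to 22039568), 20.4% for LHCB6 (AT1G15820, chromosome 1, 5446462 to 5447880) and 3.22% for LHCB4.2 (AT3G08940, chromosome 3, 2717557 to 2718923). The strand setting of the counting is not given, so values of these genes are uncertain. LHCB4.1 (AT5G01530, chromosome 5, 208866 to 210548), LHCB4.3 (AT2G40100, chromosome 2, 16745628 to 16747424), LHCB5 (AT4G10340, chromosome 4, 6408007 to 6409849) and LHCB7 (AT1G76570, chromosome 1, 28728998 to 28730851) shared no exon base and no 50-base window with another gene. LHCB5 and LHCB7 had 6 exons each and LHCB3 had 3, whereas the LHCB2, LHCB4 and LHCB6 genes had 2 in the isoforms used.

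The 150 bases before the annotated start are given for the LHCB2 and LHCB4 genes, since copies within these classes stood at different levels. Each is read on the gene's strand, and capitals mark matches to the G-box CACGTG, the GATA motif GATAAG, the motif CCAATC reported for GLK factors, and TATAAA.
LHCB2.1, chr2:1824481-1824630, minus strand: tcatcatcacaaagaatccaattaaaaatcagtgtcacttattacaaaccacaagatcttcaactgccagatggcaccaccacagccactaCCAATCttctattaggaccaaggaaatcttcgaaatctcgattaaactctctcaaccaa
LHCB2.2, chr2:1800473-1800622, minus strand: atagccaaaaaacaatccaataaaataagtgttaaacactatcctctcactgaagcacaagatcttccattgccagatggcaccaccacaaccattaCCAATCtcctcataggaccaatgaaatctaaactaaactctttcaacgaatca
LHCB2.3, chr3:10255756-10255905, plus strand: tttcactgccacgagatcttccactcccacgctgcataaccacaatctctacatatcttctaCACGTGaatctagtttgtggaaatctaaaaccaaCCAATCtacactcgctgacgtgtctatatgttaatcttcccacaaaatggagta
LHCB4.1, chr5:208716-208865, plus strand: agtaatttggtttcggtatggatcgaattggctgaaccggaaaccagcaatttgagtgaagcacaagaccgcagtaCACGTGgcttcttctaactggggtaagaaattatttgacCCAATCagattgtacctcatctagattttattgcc
LHCB4.2, chr3:2717407-2717556, plus strand: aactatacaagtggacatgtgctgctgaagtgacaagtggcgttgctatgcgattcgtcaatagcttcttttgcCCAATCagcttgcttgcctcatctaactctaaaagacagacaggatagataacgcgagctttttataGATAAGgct
LHCB4.3, chr2:16745478-16745627, plus strand: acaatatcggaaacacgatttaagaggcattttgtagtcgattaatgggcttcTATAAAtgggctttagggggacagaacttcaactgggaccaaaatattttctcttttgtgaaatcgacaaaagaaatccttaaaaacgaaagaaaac
CCAATC stood at bases -59 to -54 in LHCB2.1, -53 to -48 in LHCB2.2 and -54 to -49 in LHCB2.3, counted from the gene start. It also stood at -35 to -30 in LHCB4.1 and at -76 to -71 in LHCB4.2, and these letters were not in the window of LHCB4.3. For LHCB2.3 the first exon of the isoform used begins 35 bases after the annotated gene start, so the match lies further from that exon.

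Motif counts used the 250 bases before the gene start, on both strands for every motif but TATAAA, which was sought on the gene strand. CCAATC occurred in 5 of the 10 members and in 10.2% of 27443 protein-coding promoters of that length. Of the LHCB1 promoters 2 of 5 held it, as did 3 of 6 LHCA promoters, which belong to the photosystem I antenna. Among promoters of nuclear photosystem II subunits 1 of 10 held it. The G-box, bound by bZIP and bHLH factors, occurred in LHCB2.3, LHCB4.1, LHCB6 and LHCB7, against 6.49% of all promoters. It was in 0 of 5 LHCB1 promoters, 1 of 6 LHCA promoters and 3 of 10 promoters of nuclear photosystem II subunits. GATAAG occurred in LHCB2.1, LHCB4.2 and LHCB6, against 12.3% of all promoters. TATAAA occurred in LHCB3 and LHCB4.3, against 32.9%, and the evening element AAAATATCT, tied to the circadian clock, was in none of the 10 against 2.36%. In the members no match overlapped a match to another motif. The LHCB7 window is largely the end of a neighbouring gene, CP12-3, which stops 21 bases before LHCB7 starts. The LHCB5 window is also largely a neighbouring gene, AT4G10330, which lies 47 bases away. The windows of LHCB3, LHCB6 and LHCB4.2 reach into a neighbour that lies 112, 179 and 190 bases before the start. A match describes letters and not a bound site.

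**Figure D1:**
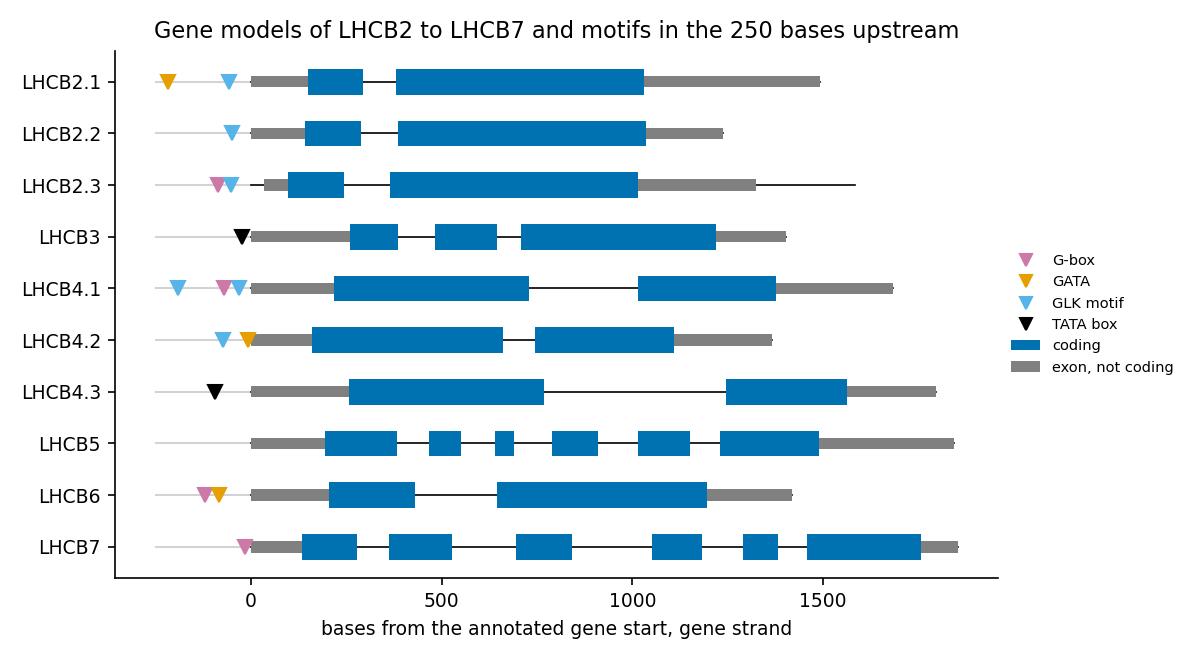
Gene models of the 10 genes drawn to scale on the gene strand, in bases from the annotated start, with coding parts in blue, other exon parts in grey and introns as lines; triangles mark motif matches in the 250 bases upstream. LHCB5 and LHCB7 have 6 exons, and a CCAATC match lies within 60 bases of the annotated gene start in the 3 LHCB2 genes and in LHCB4.1. The first exon drawn for LHCB2.3 begins 35 bases after that start.

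The libraries held 32967215, 31761722 and 27069921 counts in replicates 1, 2 and 3. Replicate 1 stood apart from the other libraries, and the biological coefficient of variation (edgeR common dispersion) was 0.32 over all 3 and 0.095 without replicate 1. Root markers summed to 7.03 CPM (counts scaled to a common library size, with TMM factors that equalise libraries on typical genes) in replicate 1, 71.2 in replicate 2 and 69.98 in replicate 3. None of the 12 root markers was at 0 in any library, but the root hair gene EXPA7 had 6, 245 and 171 counts and the endodermal gene CASP1 had 67, 857 and 719. Root meristem markers had few counts and were mixed. WOX5 had 19, 13 and 11 counts, PLT1 had 21, 35 and 24, and PLT2 had 13, 16 and 30. In CPM, WOX5 was highest in replicate 1, and PLT1 and PLT2 were lowest there. Mesophyll markers summed to 26156, 30680.0 and 28629 CPM. Fewer root cells and less RNA per root cell cannot be told apart in whole-seedling RNA, and the part of either in the results below was not tested.

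Together the 10 genes took 3.32% of the counts in replicate 1 (exact binomial 95% interval 3.31 to 3.32), 4.07% in replicate 2 (4.06 to 4.07) and 4.03% in replicate 3 (4.02 to 4.03). Intervals cover counting error only, and the mean was 3.80% ± 0.421 (SD, n = 3). The share was lowest in replicate 1, and the gap exceeded counting error. All 10 reached 1 CPM in every library, and 8 of them ranked among the 71 most abundant genes of the table. LHCB5 supplied the largest part of the members' counts, 17.4% ± 1.56, followed by LHCB3 with 15.5% ± 0.731.

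Levels between genes were compared as CPM per kb of merged exons. LHCB5, which encodes CP26, stood highest at 3447, 5602 and 5444 CPM per kb in replicates 1, 2 and 3. LHCB3, the trimer subunit that lacks the phosphorylation site of LHCB1 and LHCB2, was at 4035, 5122 and 5053 CPM per kb. These levels did not differ beyond their spread (log2 ratio 0.00 ± 0.20, SD, n = 3), and LHCB5 was the lower of the pair in replicate 1. LHCB2.2 followed at 3214, 4936 and 4934 CPM per kb and LHCB2.1 at 2733, 4566 and 4569 CPM per kb. Both had their lowest value in replicate 1 and nearly equal values in the other libraries. LHCB6, which encodes CP24, was at 3360, 3690 and 3678 CPM per kb.

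The LHCB4 genes encode CP29, a protein that sits between the core and LHCII. LHCB4.2 was at 3071.1, 3698 and 3792 CPM per kb in replicates 1, 2 and 3. LHCB4.1 was at 2833, 3327 and 3326 CPM per kb. LHCB2.3 stood below them at 821, 1246 and 1121 CPM per kb. The mean levels of these 8 genes lay between 1063 ± 218 and 4831 ± 1201 CPM per kb (SD, n = 3).

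LHCB7 and LHCB4.3 formed a much lower tier. LHCB7, a rarely expressed antenna relative, had 796, 842 and 656 counts, which is 18.4, 22.7 and 20.7 CPM per kb in replicates 1, 2 and 3. LHCB4.3, the divergent CP29 copy also called LHCB8, had 296, 579 and 433 counts, or 5.75, 13.1 and 11.5 CPM per kb. The log2 ratio of LHCB2.3 to LHCB7 was 5.67 ± 0.17 (SD, n = 3), a 50.7-fold step, and the library values did not overlap. With only the exon bases that no other gene covers this log2 ratio was 6.42. LHCB7 exceeded LHCB4.3 by a log2 ratio of 1.10 ± 0.49 in 3 of 3 libraries.

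**Figure D2:**
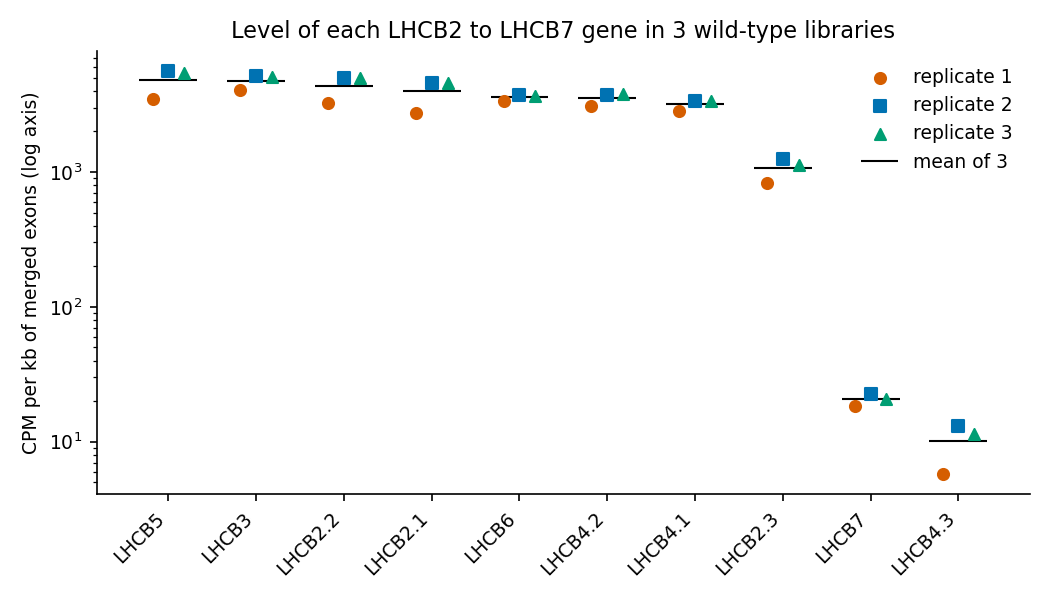
Level of each gene in CPM per kb of merged exons on a log axis, ordered by the mean, with 1 symbol per library and a bar at the mean of 3. LHCB5 to LHCB2.3 lie between 821 and 5602 CPM per kb, and LHCB7 and LHCB4.3 lie between 5.75 and 22.7; with TMM scaling replicate 1 is lowest for every gene, and with total counts for all but LHCB6.

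Of the 9 steps between neighbours in this order, 5 had a mean log2 ratio larger than its SD, namely LHCB2.2 to LHCB2.1 (0.15 ± 0.07), LHCB4.2 to LHCB4.1 (0.15 ± 0.04), LHCB4.1 to LHCB2.3 (1.59 ± 0.19) and both steps into the lower tier. The steps LHCB5 to LHCB3, LHCB3 to LHCB2.2 (0.14 ± 0.17), LHCB2.1 to LHCB6 (0.11 ± 0.35) and LHCB6 to LHCB4.2 (0.03 ± 0.09) did not exceed their SD. With 3 libraries, an exact two-sided permutation test of signs reaches p = 0.25 at best; after adjustment over the 9 steps by Benjamini-Hochberg, the smallest exact p was 0.375. The order within the upper tier rests on the length used. With coding length, or with no length, LHCB2.1 exceeded LHCB2.2 (log2 ratio of LHCB2.2 to LHCB2.1 -0.15). With only the exon bases that no other gene covers, LHCB3 stood highest at 5571 ± 716 CPM per kb and LHCB6 reached 4495 ± 235 CPM per kb, above LHCB2.1. LHCB2.3, with the largest overlap, then reached 1789 ± 368 CPM per kb, and the log2 ratio of LHCB4.1 to LHCB2.3 was 0.84.

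Sums over gene copies gave the balance between protein classes. LHCB2 summed to 6768, 10748 and 10624 CPM per kb in replicates 1, 2 and 3, against 43240.2, 38256 and 38896.5 CPM per kb for LHCB1, the other main trimer subunit. LHCB2 was thus 0.157, 0.281 and 0.273 times LHCB1 (log2 ratio -2.13 ± 0.48, SD, n = 3), lower in 3 of 3 libraries. Replicate 1 was the low library for LHCB2 and the high one for LHCB1. This ratio is taken within a library and does not depend on scaling. The LHCB1 genes CAB1, CAB2 and CAB3 are near-identical copies, so only the LHCB1 sum is used for this ratio. If reads with several positions were left out of the counts, which is not known, both sums would lack reads. The ratio is therefore uncertain as well. Values of single LHCB1 genes given further on are uncertain for the same reason. LHCB1.5 is listed at 0, but other annotated genes cover all its exon bases, so this need not mean that it had no transcript. Levels of mRNA do not give the amounts of protein.

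LHCB2 exceeded LHCB3 by log2 ratios of 0.75, 1.07 and 1.07 in replicates 1, 2 and 3 (mean 0.96 ± 0.19, SD, n = 3). Among the minor antenna classes, LHCB4 exceeded LHCB5 1.71-, 1.26- and 1.31-fold (0.50 ± 0.24). LHCB5 exceeded LHCB6 1.03-, 1.52- and 1.48-fold (0.40 ± 0.32), and with only unshared exon bases this mean was 0.07 and LHCB5 was below LHCB6 in replicate 1. LHCB4.1 exceeded LHCB4.3 485-, 253- and 287-fold (8.36 ± 0.50), and LHCB5 exceeded LHCB7 186-, 246- and 261-fold (7.84 ± 0.26). All 6 ratios, LHCB2 to LHCB1 included, kept their direction in 3 of 3 libraries, with an exact permutation p of 0.25 each, the smallest that 3 libraries allow, and the same value after Benjamini-Hochberg adjustment.

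**Figure D3:**
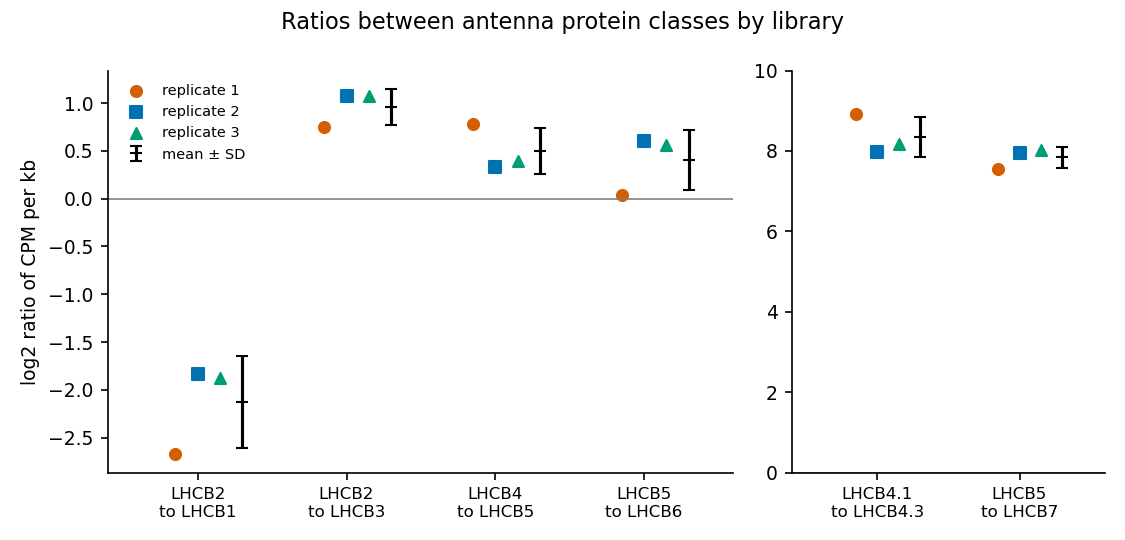
Log2 ratios of summed CPM per kb between antenna protein classes, with 1 symbol per library and the mean ± SD (n = 3) in black; the right panel has its own axis starting at 0. Replicate 1 lies below the other libraries for LHCB2 to LHCB1 (-2.68 against -1.83 and -1.87) and above them for LHCB4 to LHCB5.

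Within the LHCB2 class the SD of each copy's share over the libraries was at most 1.46 percentage points. LHCB2.1 took 44.1%, 46.2% and 46.9% of the class counts in replicates 1, 2 and 3. LHCB2.2 took 42.1%, 40.6% and 41.1%, and LHCB2.3 took 13.8%, 13.1% and 11.98%. LHCB4.1 and LHCB4.2 shared their class almost evenly, at 47.8% ± 0.646 and 52.0% ± 0.613 of the LHCB4 counts (SD, n = 3). LHCB4.3 took 0.102%, 0.195% and 0.169%.

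With TMM scaling every member was lowest in replicate 1, and with total counts every member but LHCB6. LHCB2.1 was at 3843, 6419 and 6424 CPM in replicates 1, 2 and 3, a log2 difference of -0.74 between replicates 1 and 2 and of -0.00 between replicates 2 and 3. LHCB5 was at 4788, 7781 and 7561 CPM, and LHCB4.3 at 8.32, 18.9 and 16.6 CPM, with log2 differences between replicates 1 and 2 of -0.70 and -1.14. LHCB6 was the steadiest, at 4046, 4443 and 4429 CPM, a coefficient of variation of 5.23%. LHCB3, LHCB4.1, LHCB4.2 and LHCB7 lay between, with log2 differences of -0.23 to -0.34. Replicates 2 and 3 differed by -0.04 to 0.18 on the log2 scale over the 10 genes.

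The count of 10 of 10 is to be read against 43.8% of the 19016 tested genes that were lowest in replicate 1, and against 80.2% of the 91 other genes with a mean of 1000 CPM or more. Scaled by total counts, which shifts replicate 1 upward by a median log2 of 0.11, 9 of 10 were lowest in replicate 1, against 33.7% of all tested genes and 68.1% of the 91 abundant genes. LHCB6 was then highest in replicate 1. The median log2 difference between replicates 1 and 2 was -0.47 over the members, -0.36 over the 91 abundant genes and 0.01 over all tested genes.

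**Figure D4:**
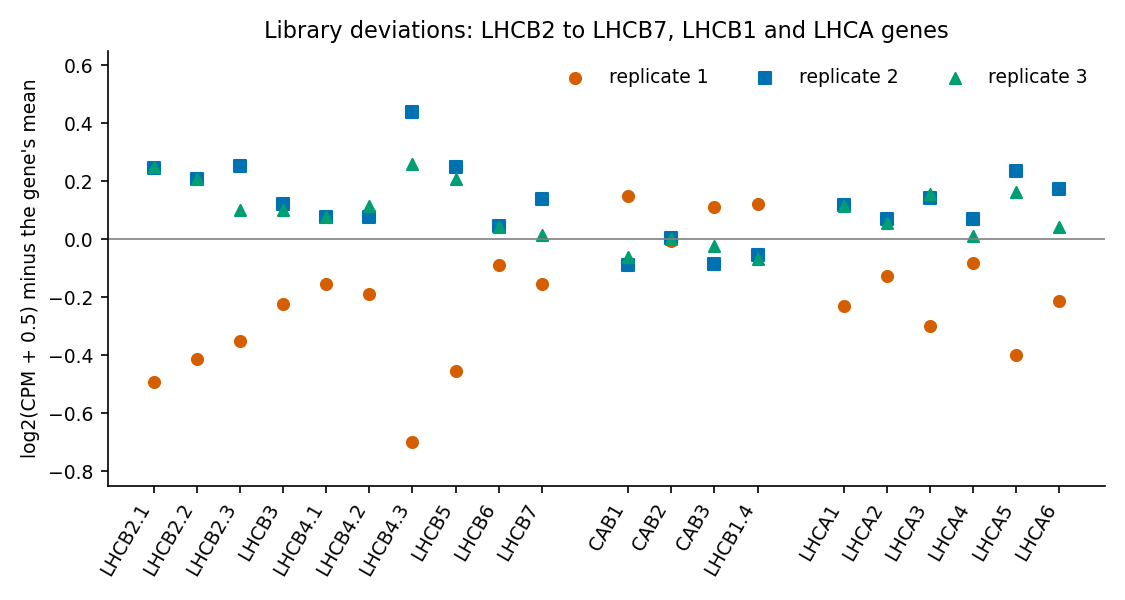
Deviation of log2(CPM + 0.5) from each gene's mean in the 3 libraries, for the LHCB2 to LHCB7 genes on the left, the LHCB1 genes with counts in the middle and the LHCA genes on the right. Replicate 1 lies below 0 for all 10 members, above 0 for CAB1, CAB3 and LHCB1.4, and below 0 for the 6 LHCA genes; with total counts LHCB6 and 1 LHCA gene are instead highest there.

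The goodness-of-fit test of edgeR asks whether a gene varies between libraries more than genes of like abundance. After Benjamini-Hochberg adjustment 0 of the 10 members passed it at 0.05. Of all tested genes 2.02% passed. At an unadjusted p under 0.05 there were also 0 members, against 7.45% of tested genes, and DESeq2 marked 0 members as dispersion outliers, against 0.121%. The lowest unadjusted edgeR p was 0.172, for LHCB4.3. LHCB2.1 had an SD of 0.43 on the log2 scale and LHCB5 of 0.39, against a median of 0.20 for the 26 genes with a mean above 3000 CPM, while LHCB6 had 0.08. Those 26 genes include LHCB2.1, LHCB2.2, LHCB3, LHCB4.1, LHCB4.2, LHCB5 and LHCB6, so the median is in part their own. Beyond counting error alone, all 10 members varied by a Poisson chi-square test with Benjamini-Hochberg adjustment (largest adjusted p = 0.000246, for LHCB7). So did 78.5% of tested genes, and 91 of the 91 other genes with a mean of 1000 CPM or more. Without replicate 1, 4 members passed this test, namely LHCB2.3, LHCB3, LHCB4.2 and LHCB5, against 24.7% of the genes tested there. LHCB7 also missed the threshold with total counts (adjusted Poisson chi-square p = 0.125) and without replicate 2 (0.065).

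**Figure D5:**
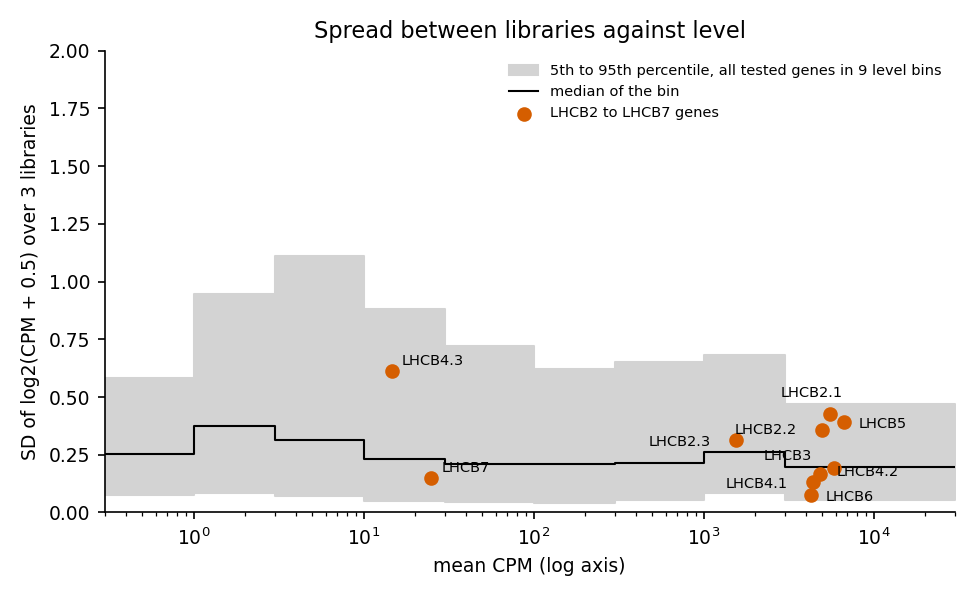
SD of log2(CPM + 0.5) over the 3 libraries against mean CPM on a log axis, with the 10 genes as orange points, the 5th to 95th percentile of all tested genes in grey and the median of each level bin as a line. All 10 lie inside the grey band, which was computed with the members included. LHCB2.1 (0.43) and LHCB5 (0.39) lie in its upper part and LHCB6 (0.08) in its lower part.

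Other genes of the antenna pathway were also read from the edgeR fit. In the LHCB1 list 0 of 4 tested genes varied beyond genes of like abundance, with 0 at an unadjusted p under 0.05. In the LHCA list the counts were 0 of 6 and 0, and among 10 nuclear photosystem II subunits 0 and 1. Of 5 genes that bring antenna proteins to the thylakoid 0 passed. Of these, cpSRP43 (AT2G47450), a targeting factor particular to these proteins, was at 748, 710.3 and 747 CPM, and the insertase gene ALB3 at 455, 342 and 297 CPM. Of 5 genes of chlorophyll b metabolism 0 passed, with CAO (AT1G44446), the enzyme that makes chlorophyll b, at 391, 334 and 280.4 CPM. In the direction of replicate 1 the lists were mixed. Highest there were 4 of 5 import genes, 3 of 5 chlorophyll b genes and 3 of 4 LHCB1 genes, against 45.4% of all tested genes, and with total counts these numbers were 4, 4 and 4, against 56.1%. Lowest there were 6 of 6 LHCA genes, 9 of 10 photosystem II subunits and 6 of 8 light-harvesting-like genes. The shares lowest there were 43.8% of all tested genes and 80.2% of the 91 abundant genes outside the members. With total counts the numbers were 5, 9 and 5, against 33.7% and 68.1%. The fourth LHCB1 gene, CAB2, was lowest there with TMM scaling, at 10869.9, 10955.6 and 10922.5 CPM.

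Of 4 kinase and phosphatase genes 0 passed the edgeR test. STN7, the LHCII kinase gene, was at 105, 103 and 88.6 CPM, and TAP38, the gene of the phosphatase that reverses it, at 103, 71.4 and 62.6 CPM in replicates 1, 2 and 3. Of 6 regulators 0 passed, with GLK1 at 191, 206 and 192 CPM and GLK2 at 233, 296 and 304 CPM. Of 3 genes of energy quenching 0 passed, with PSBS, the sensor of lumen acidity, at 1301, 2041 and 1999 CPM. PSBS was lowest in replicate 1, but the other genes of this list, VDE and ZEP, were highest there. VDE was at 35.6, 18.3 and 17.2 CPM and ZEP at 483, 429 and 324 CPM. Of 8 light-harvesting-like genes 0 passed, with 2 at an unadjusted p under 0.05, and ELIP1, a light-stress relative of the LHC family, was at 6.58, 20.3 and 20.4 CPM. Of 6 leaf markers 0 passed, and of 8 tested root markers 2 passed, both lowest in replicate 1. Of all 384 genes that passed, 203 were lowest there. The root hair markers EXPA7, COBL9, PRP3 and RSL4 were not tested, because the filter on low counts left them out. COBL9 had 3, 87 and 68 counts and PRP3 had 5, 276 and 230 in replicates 1, 2 and 3.

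The genes beside the abundant members stood far below them, except that LHCB2.1 and LHCB2.2 are each other's neighbour. The nearest protein-coding genes that do not overlap LHCB2.2, LHCB2.1 and LHCB2.3 included AT2G05060, AT2G05105 and AT3G27680, each with 0 counts in all 3 libraries, and so had LECRKA4.1 beside LHCB4.1. MRE11, a DNA repair gene that ends 112 bases before LHCB3, was at 8.38, 4.94 and 5.53 CPM. AT4G10330, which ends 47 bases before LHCB5, was at 19.2, 19.97 and 18.5 CPM. The rare members were closer in level to their neighbours than the abundant ones, though LHCB4.3 stood well above the gene on 1 side. LHCB7 was at 22.4, 27.5 and 25.2 CPM, against 17.7, 14.1 and 13.05 CPM for CP12-3 and 19.7, 10.95 and 10.5 CPM for AT1G76580 on its other side. Both neighbours were highest in replicate 1 and LHCB7 lowest there. LHCB4.3 was at 8.32, 18.9 and 16.6 CPM, against 5.09, 8.66 and 11.2 CPM for AT2G40110. AT2G40095, on its other side, was at 0.675, 2.78 and 2.80 CPM.

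At the third codon position the members were richer in G and C than the typical gene. The median was 53.8% over the 10 coding sequences, against 42.1% over 27444 nuclear protein-coding genes. LHCB6 was highest at 59.8% and LHCB7 lowest at 38.7%. Within the LHCB4 class coding identity was 81.1% for LHCB4.1 and LHCB4.2 and 65.4% for LHCB4.1 and LHCB4.3. Between trimer classes it was 67.4% for LHCB2.1 and LHCB3 and 73.2% for LHCB2.1 and CAB1. Between trimer and minor antenna genes it was lower, such as 48.9% for LHCB2.1 and LHCB4.1 and 53.1% for LHCB2.1 and LHCB5.

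Among 1595 other genes with a mean of 100 CPM or more, those whose deviations over the 3 libraries lay nearest to the members' median (-0.29, 0.17 and 0.11 on the log2 scale) were AT3G12345, PRXQ, IIL1, ACLB-1 and APE2. Their Euclidean distances from it were 0.0124 to 0.0161. With 3 libraries this likeness is a description only. APE2, the plastid triose phosphate transporter gene, was at 1337, 1811 and 1742 CPM.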

How the data were processed

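The authors deposited raw counts as whole numbers for each gene, in 3 columns that each hold 1 library, and 0 columns were of unknown origin. Tools named in the submitters' processing notes are featureCounts 1.6.1, HISAT2 2.1.0 and DESeq2, beside the build TAIR10, without roles or order. No source used here gives the annotation, strand setting or filters. Of 37336 identifiers 37051 matched RefSeq TAIR10.1, which gave coordinates, exon lengths and sequence. For gene models, sequence windows and coding sequences the first isoform was used, except where it kept the sole intron of a gene that another isoform splices (LHCB4.2). Lengths for CPM per kb merged the exons of all isoforms. For LHCB4.2 this length was 1367 bases, the whole gene with its intron. For LHCB2.3 it was 1465 bases over 2 isoforms, longer than the isoform drawn.

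CPM used TMM factors of 1.079, 0.9631 and 0.9624 (edgeR 4.0.16, R 4.3.3). A count of 0 allows up to 3 counts, or 0.0843, 0.0981 and 0.115 CPM. Levels took a pseudocount of 0.1, library differences 0.5. Variation was tested with edgeR's goodness-of-fit test on an intercept-only fit over the 19016 genes kept by filterByExpr, and with a Poisson chi-square test, both with Benjamini-Hochberg adjustment at 0.05. Both tests were run on simulated data. For the edgeR test these held only changes far larger than those of the members, so its power for smaller changes was not tested. For the Poisson test they held no changes. DESeq2 1.42.0 gave an alternative. Coding sequences were aligned with Biopython 1.88; SciPy 1.17.1 gave intervals.

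Members, lists, motifs and tests were chosen with earlier results of these data known. By the rule for names, all members are named, any gene of a list may be, and so may nearest neighbours and the 5 genes nearest to the members' median deviation. Which listed genes and neighbours to name was chosen after their values were seen.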

Additional observations from a re-analysis of the deposited data

How the results depend on the processing

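No paired analysis was possible because the 3 libraries form 1 group. The mean kept its direction in all 42 alternatives for the 6 class ratios, though LHCB5 to LHCB6 turned in replicate 1 with unshared exon bases, and in 54 of 63 for the 9 neighbour steps. The log2 ratio of LHCB5 to LHCB3 ranged from -0.06 to 0.12 when 1 library was left out and was -0.23 with unshared exon bases, a length chosen after the data were seen. LHCB2.2 to LHCB2.1 turned to -0.146 with no length correction and with coding length, LHCB2.1 to LHCB6 to -0.22 with unshared bases, and LHCB6 to LHCB4.2 to -0.16 with no length, -0.002 with coding length and -0.024 to 0.063 with 1 library left out. The other length moves a ratio by construction; the cause of the changes with a library left out was not tested.

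The count of genes past the edgeR test was 384, 23 by DESeq2 dispersion outliers, and 60 to 129 with 1 library left out (60 without replicate 1, 119 without replicate 2, 129 without replicate 3), where fewer samples enter. No member passed it under any alternative run. Genes past the Poisson test numbered 14928, and 4816 to 13859 with 1 library left out, the lowest without replicate 1. Members past it then numbered 4 to 10, with 4 without replicate 1, and 9 with total counts or without replicate 2, where LHCB7 missed. The share of counts became 4.24% when the 10 most abundant other genes left the total, since the total is then smaller. Counting error was largest for LHCB4.3, at 4.79% against 38.1% between libraries, and LHCB7, at 3.62% against 10.3%.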
